A study of Arabidopsis thaliana with 126 samples.

Results

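The transcripts of the chloroplast and mitochondrial genomes were taken as every locus with an ATCG (plastid) or ATMG (mitochondrial) identifier that reached 1 TPM, a transcript abundance scaled by gene length and library total, in at least 2 libraries of an RNA-seq table. Of 279 organelle loci among the 33602 loci listed, 130 passed, of which 79 were plastid and 51 mitochondrial. The first table held 126 of them (77 plastid and 49 mitochondrial) and the second 106 (75 and 31). In the first table the plastid locus just inside the minimum had 1.46 TPM in its second-highest library and the one just outside had 0.94 TPM. The mitochondrial values were 1.09 and 0.93 TPM.

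The study compared ethylene (ET) with hydrocarbon-free air in dark-grown (etiolated) Arabidopsis seedlings, 3 days old, of ET-response and chromatin mutants. The first table held wild-type Ler, the single mutants ein2-45, ein6-1 and een-1, and the double mutant ein6-1 een-1, all in the Ler accession; every genotype was kept in air or given ET gas for 4 hr. Used from the second were Col-0, een-2, ino80-8 and arp5-1 seedlings in the Col-0 accession, all in air. Each of the 14 groups had 2 libraries, and these 28 libraries belong to a series of 126 samples. ein6-1 is a small deletion in EIN6 (REF6), a histone demethylase gene, and een-1 is an inversion at EEN, whose protein belongs to the chromatin remodeler INO80; both came from 1 mutagenesis screen. ein2-45 is a point mutation of EIN2, the central ET signal transducer. een-2 and ino80-8 are T-DNA insertions in EEN and INO80, and arp5-1 affects ARP5, another INO80 subunit gene. EEN was thus represented by an allele in each accession, and each other mutated gene by a single allele.

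Plastids and mitochondria keep small genomes of their own. Plastid genes encode ribosomal RNAs, ribosomal proteins and subunits of the photosynthetic complexes, and are read by a plastid-encoded polymerase, which nuclear sigma factors steer, and by nuclear-encoded phage-type polymerases. Mitochondrial genes encode subunits of the respiratory chain, of ATP synthase and of the ribosome. In etiolated seedlings the plastids are etioplasts, which have not yet built the photosynthetic apparatus. Most organelle transcripts carry no stable poly(A) tail, so their level in a library depends on how RNA was selected, and that step is not given in the sources used here.

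Neither the tables nor the reference annotation used here pairs these identifiers with gene names. A description could be taken for 27 loci, 6 plastid and 21 mitochondrial, from notes on related nuclear genes and from a gene list of the study. The remaining loci are given by identifier only.

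The nuclear genome carries copies of mitochondrial genes on chromosome 2. Notes in the TAIR10.1 annotation tie 54 chromosome 2 genes to a mitochondrial locus. Of these, 27 had every one of their 50-base words in the TAIR10.1 mitochondrial genome, and the median gene had 99.6% of its words there. A read of 50 bases from such a gene matches both genomes.

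Where the copies differ, the difference can be 1 base in a long stretch. The windows below show such bases in genomic DNA. Whether these bases also tell a nuclear from a mitochondrial read was not tested, because transcript sequences were not compared. AT2G07698 is the copy of ATMG01190, which encodes ATP synthase subunit 1, and AT2G07785 is the copy of ATMG01275, described as NADH dehydrogenase 1A. Capitals mark the base at which the TAIR10.1 sequences differ.
AT2G07698, chr2:3362388-3362417, plus strand: ccaaaggcctttttaGtgattagtctgcta
Mitochondrial genome, MT:360971-361000, plus strand: ccaaaggcctttttaAtgattagtctgcta
AT2G07785, chr2:3348471-3348500, plus strand: gccgcaggtgttgaaTgatctactctacac
Mitochondrial genome, MT:82845-82874, minus strand: gccgcaggtgttgaaCgatctactctacac

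The TPM of several loci followed their copies. ATMG00980, described as a ribosomal protein of the S12/S23 family, had the same TPM as AT2G07675 (chr2:3270410-3270787) in all 28 libraries, from 6.04 to 75.7 TPM. Of the 21 pairs of a mitochondrial locus and a chromosome 2 copy, 3 were equal to within 0.01 TPM in every library. ATMG00990 (NADH dehydrogenase 3) and AT2G07751 (chr2:3270008-3270364) behaved differently, since exactly 1 of the pair was at 0 in 26 of 28 libraries. Their sum was above 0 in all 28, from 1.95 to 36.9 TPM. In Ler air ATMG00990 was at 0 and 20.2 TPM while AT2G07751 was at 25.9 and 4.40 TPM. A value of 0 at ATMG00990 was thus always accompanied by signal at the copy.

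**Figure D1:**
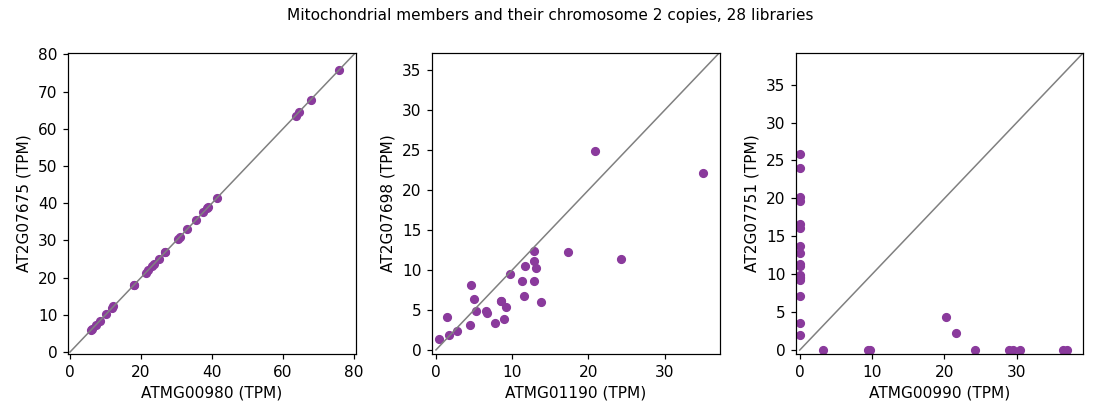
Each point is 1 of 28 libraries, with the TPM of a mitochondrial locus on the horizontal axis, the TPM of its chromosome 2 copy on the vertical axis and a grey line at equal values. ATMG00980 lies on the line in all 28 libraries, ATMG01190 lies on both sides of it, and ATMG00990 lies on 1 of the axes in 26 of 28.

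Plastid loci formed pairs too. In 9 plastid pairs the TPM was equal in at least 75% of the libraries with a value, among them ATCG00830 and ATCG01310 (ribosomal protein L2) in 28 of 28. ATCG00905 and ATCG01230 were equal in 26 of 28. In the others, the second library each of Ler air and ein6-1 air, ATCG00905 was listed at 0 and ATCG01230 at 13.7 and 7.85 TPM. This pair returns below, because ATCG01230 was called in 4 comparisons.

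A few loci made up nearly all organelle signal. The 8 plastid and 3 mitochondrial loci with a mean of 100 TPM or more, called dominant loci here, took 86.8% to 99.0% of the plastid and 81.2% to 95.6% of the mitochondrial TPM in the first table. In the second they took 71.0% to 99.1% and 83.3% to 96.0%. ATCG00970 and ATCG01160 averaged 2194 TPM each in the first table, ATMG01380 averaged 786 TPM, and the highest other loci averaged 54.5 TPM (ATCG00490) and 36.5 TPM (ATMG00980). The annotation used here does not say what kind of RNA the dominant loci encode.

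The dominant loci differed widely between replicates. Their plastid sum was 22222 and 8598 TPM in Ler air, 11235 and 51762 TPM in ein6-1 ET, and 4687 and 35388 TPM in ein2-45 air. ATCG00960 and ATCG01170 were listed at 0 in 15 of 20 libraries of the first table and had values in both ein6-1 ET, both ein6-1 een-1 ET and 1 ein2-45 air library, up to 15797 TPM. In the second table ATCG00970, ATCG01160 and ATMG01380 were listed at 0 in 6 of 8 libraries and had values only in arp5-1. Because of their mean level the dominant loci were left out of the totals and counts that follow.

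**Figure D2:**
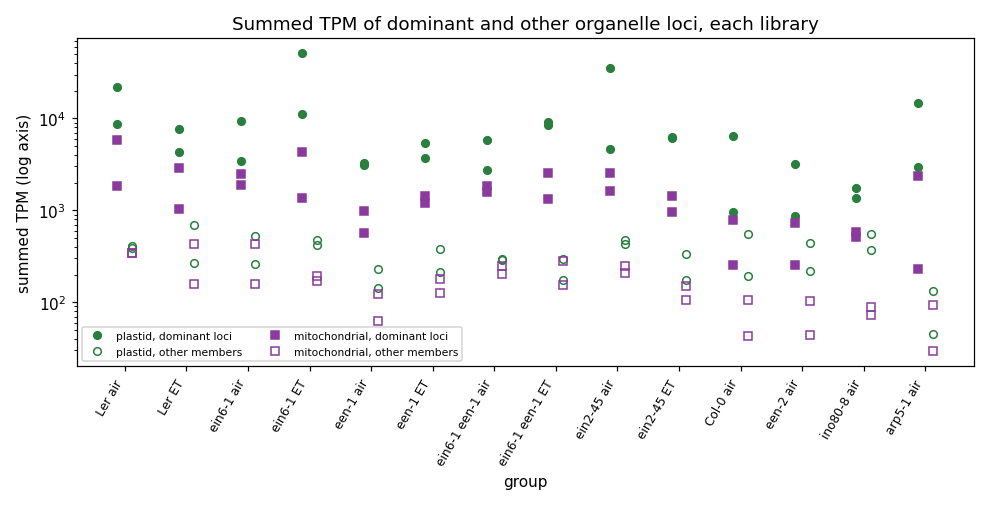
Summed TPM (log axis) of the dominant loci (filled) and the other loci (open) of the plastid (circles) and mitochondrial genome (squares), 2 libraries a group. In the first table the dominant plastid sum spans 2730 to 51762 TPM and the other plastid loci span 144 to 694 TPM.

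Series-wide checks bear on these values. Nuclear rRNA loci took 2.80% to 30.3% of TPM in the first table and 0.921% to 3.54% in the second. PORA, an etioplast protochlorophyllide reductase gene, was at 214 TPM or more in all 28 libraries. EEN was at 0.32 and 1.01 TPM in een-2 against 50.3 and 38.6 TPM in Col-0, INO80 at 3.41 and 2.87 TPM in ino80-8 against 19.0 and 20.5 TPM, and ARP5 at 3.96 and 4.37 TPM in arp5-1 against 5.51 and 5.36 TPM. EIN2 was at 8.24 to 10.6 TPM in the 4 ein6-1 een-1 libraries. The lesions of ein6-1, een-1 and ein2-45 were not checked by level.

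Outside the dominant loci, ATCG00490 led the plastid with a median share of 15.7% (9.51% to 20.02% over 20 libraries), where a share is taken of the organelle's own total without the dominant loci. The 8 highest plastid loci together held a median of 40.0% and the 8 highest mitochondrial loci 54.0%. Among the described plastid loci of the first table, ATCG00670 (the plastid-encoded ClpP protease subunit) had a median share of 1.87%. The ribosomal protein loci ATCG01310 (L2), ATCG00750 (S11) and ATCG00660 (L20) had 1.51%, 1.17% and 0.785%. ATCG00530, described as a CemA-like proton extrusion protein, had 0.478%, and ATCG00430, described as photosystem II reaction center protein G, had 0.323%.

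Among the described mitochondrial loci ATMG00980 led, with a median share of 16.9% (12.7% to 22.1%). The ATP synthase loci followed in the order ATMG01190 (subunit 1) at 5.57%, ATMG01080 (subunit 9) at 2.48%, ATMG00410 (subunit 6) at 2.02% and ATMG00480 (subunit 8) at 1.34%. Loci of NADH dehydrogenase, the first complex of the respiratory chain, stood at 3.32% (ATMG00070, subunit 9), 1.23% (ATMG01320, 2B) and 0.758% (ATMG01275, 1A). ATMG00730, encoding cytochrome c oxidase subunit 3, stood at 0.670%. All of these loci but ATMG00070 have a chromosome 2 copy, which the shares leave out. In the first table AT2G07671, the copy of ATMG01080, averaged 18.5 TPM against 7.03 TPM at the locus. The copies averaged 9.42 against 12.7 TPM for ATMG01190 and 0.045 against 4.46 TPM for ATMG00410. ATMG00480 and its copy averaged 2.85 TPM each. The order with the copies added was not computed. The ranges of ATMG01080 (1.27% to 7.89%), ATMG00410 (1.62% to 3.34%) and ATMG00480 (0.535% to 2.31%) overlapped, so the order of these neighbours did not hold in every library.

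The organelle totals were compared first, as percent of TPM outside nuclear rRNA and the dominant loci. In bulk seedlings, fewer organelle genomes per cell and less transcript per genome cannot be told apart. In Ler the plastid total was 0.0508% and 0.0449% in air and 0.0772% and 0.0279% in ET. The mitochondrial total was 0.0422% and 0.0392% in air and 0.0478% and 0.0167% in ET. The ET libraries lay on both sides of the air libraries in each case.

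Over the 5 genotypes of the first table no difference between ET and air was detected in either total. The mean ET minus air difference was -0.02 on the log2 scale for the plastid (exact permutation test within genotypes, two-sided, 7776 arrangements, p = 0.928) and -0.19 for the mitochondria (exact permutation test, p = 0.491). By genotype the plastid difference ran from -0.96 in ein2-45 to 0.66 in een-1, and the mitochondrial one from -0.93 to 0.81 in the same genotypes. Within 1 genotype, 2 against 2 libraries cannot give a p below 0.333.

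een-1 seedlings in air had the lowest mean totals of the first table. The plastid total was 0.0245% and 0.0149%, a mean 2.43-fold lower than in Ler, and the mitochondrial total was 0.0131% and 0.00640%, a mean 4.18-fold lower. The een-1 and Ler air libraries did not overlap in either. The nuclear rRNA share was also lower, at 6.42% and 2.80% against 16.1% and 11.6%, and its part in the difference was not tested. On TPM as deposited, 22 of 69 plastid and 22 of 46 mitochondrial loci were called lower and 1 mitochondrial locus higher by limma, where 23.7% of all genes were called and 2.62% were called lower. The median difference on that scale was -0.84 over plastid and -1.08 over mitochondrial loci, against 0.32 over all genes. The EEN allele in the other accession, een-2, had totals that overlapped those of Col-0. Its plastid total was 0.0458% and 0.0222% against 0.0196% and 0.0568% in Col-0. Its mitochondrial total was 0.0108% and 0.00450% against 0.00433% and 0.0110%.

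**Figure D3:**
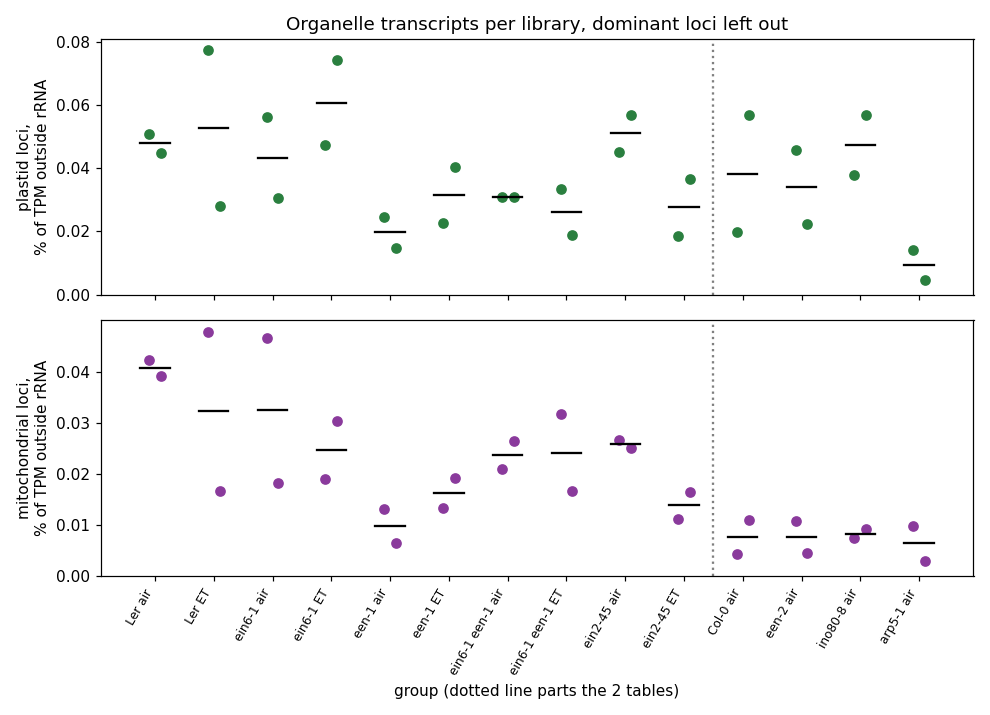
Plastid (top) and mitochondrial (bottom) loci as percent of TPM outside nuclear rRNA and the dominant loci, with 1 point for each library and a line at the mean of 2. een-1 in air has the lowest mean left of the dotted line in both panels (0.0197% and 0.00974%), and arp5-1 has the lowest right of it (0.00937% and 0.00641%).

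The ratio of plastid to mitochondrial signal showed less spread between replicates in several groups. It was 1.20 and 1.15 in Ler air against 1.62 and 1.67 in Ler ET, and 1.20 and 1.67 in ein6-1 air against 2.48 and 2.44 in ein6-1 ET, higher in ET without overlap. In ein6-1 een-1 it was 1.46 and 1.17 in air against 1.06 and 1.13 in ET, lower in ET. In een-1 (1.87 and 2.32 against 1.70 and 2.09) and ein2-45 (1.70 and 2.27 against 1.67 and 2.21) air and ET overlapped. These are values of 2 libraries a group and were not tested.

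Within the organelles, ET changed the share of few loci. Plastid, mitochondrial and nuclear genes were each scaled to a common total and limma was fitted across all genes on log2(value + 1), a scale that understates the change of low loci. In Ler 2 of 115 loci were called at an adjusted p below 0.05 (24.2% of all genes), with median differences of 0.05 over plastid and 0.05 over mitochondrial loci against 0.14 over all genes. ATCG01090 had 0.0728% and 0.145% of the plastid total in air and 0.353% and 0.948% in ET (1.18 ± 0.33 on the log2 scale, SE, limma adjusted p = 0.0176). In TPM it was low, at 0.30 and 0.57 in air and 2.45 and 2.51 in ET. ATCG00130 had 1.22% and 1.54% in air and 1.86% and 3.04% in ET (0.69 ± 0.21, limma adjusted p = 0.0260). Both were higher in each ET library than in either air library. The count of called loci was 0 without the second Ler ET library, 5 if the first was dropped instead, and 1 without the first Ler air library.

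In the mutants ET moved few or no loci. In ein6-1 2 were called (14.9% of all genes). ATCG01230 had 1.15% and 2.98% in air and 0.839% and 0.481% in ET (-1.27 ± 0.39, limma adjusted p = 0.0394), but the second air library is one in which its twin ATCG00905 was at 0, and with the pairs added together 1 locus was called. ATMG01350, below 2 TPM throughout this comparison, was at 0 and 0.24 TPM in air and 0.83 and 1.69 TPM in ET (1.07 ± 0.30, limma adjusted p = 0.0228). The second ein6-1 ET library differed from the first in nuclear rRNA (30.3% against 8.98%), EIN2 (34.1 against 107 TPM) and INO80 (4.87 against 15.7 TPM), and the part of this in the calls was not tested. The count was 0 without that library, 1 if the first ein6-1 air library was dropped, and 4 if either the first ein6-1 ET or the second Ler ET library was.

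In een-1 1 locus was called (13.9% of all genes). ATMG00210 (ribosomal protein L5) was at 1.38 and 0.76 TPM in air and listed at 0 in both ET libraries, while its copy AT2G07725 was at 1.19 and 0.60 TPM in air and 2.80 and 4.86 TPM in ET. The count ran from 0 without the second ein6-1 een-1 ET library to 7 without the second een-1 air library. In ein6-1 een-1 limma called 0 loci (0.69% of all genes). At an unadjusted p under 0.05 there were 11 loci (9.57%, against 7.96% of all genes). In ein2-45 limma called 0 loci (0% of all genes), with 13 at an unadjusted p under 0.05 (11.3%, against 2.81% of all genes).

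Whether the ET response of a mutant differed from that of Ler was tested as an interaction, and 3 loci were called over the 4 mutants. For ein6-1 limma called 0 (0.0146% of all genes), with 5 loci at an unadjusted p under 0.05 (4.35%, against 10.9% of all genes). For een-1 limma called 0 (0.00486% of all genes), with 10 loci at an unadjusted p under 0.05 (8.70%, against 6.86% of all genes). For ein6-1 een-1 2 were called (8.72% of all genes). ATCG00660, encoding ribosomal protein L20, had 1.40% and 1.13% in air and 0.837% and 1.02% in ET in Ler, but 0.385% and 0.597% in air and 1.42% and 1.21% in ET in ein6-1 een-1 (difference 1.46 ± 0.42, limma adjusted p = 0.0426). With the dominant loci kept in the total this difference turned to -0.68, and over 32 alternatives the call was kept in 16, lost in 15 with the same direction and reversed in that 1. ATCG01090 rose with ET in Ler (above) and had 0.450% and 0.810% in air and 0.463% and 0.139% in ET in ein6-1 een-1 (difference -1.78 ± 0.47, limma adjusted p = 0.0266).

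For ein2-45 1 locus was called (9.29% of all genes). ATCG00780 had 2.51% and 3.66% in air and 2.50% and 0.955% in ET in Ler, and 1.96% and 1.83% in air and 3.34% and 3.41% in ET in ein2-45 (difference 1.64 ± 0.43, limma adjusted p = 0.0235). The 4 differences share the Ler libraries. Over all 4, the count was 0 without the second Ler air library, 1 without the first Ler air, the second Ler ET, the second ein6-1 een-1 air or the second ein6-1 een-1 ET library, and 6 when ein6-1 ET lost its first library.

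**Figure D4:**
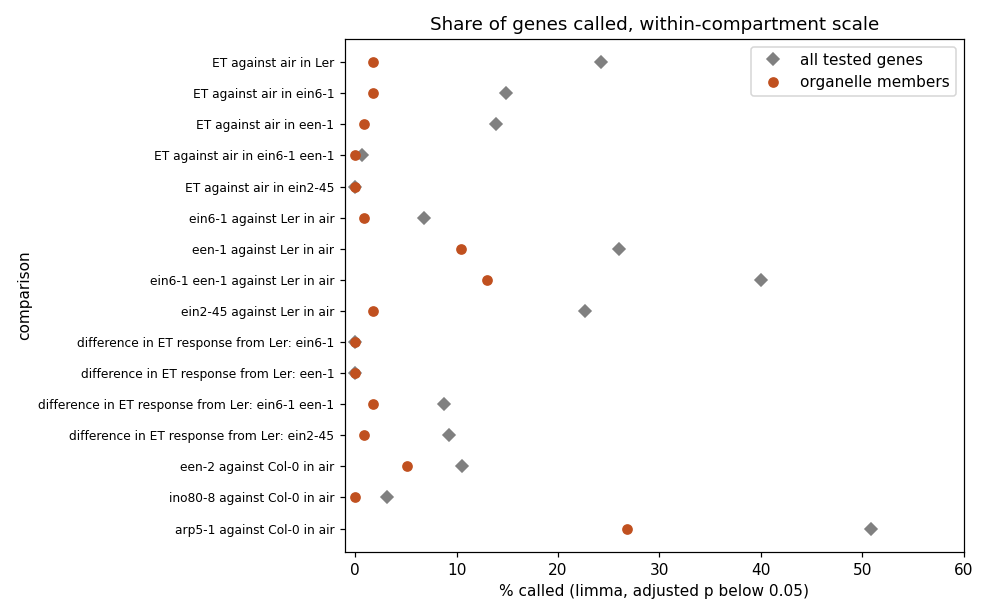
Percent of organelle loci outside the dominant loci (circles) and of all tested genes (diamonds) called by limma at an adjusted p below 0.05 in each comparison, shares within each organelle's total. For arp5-1, 26 of 97 organelle loci were called where 50.9% of all genes were, and for ET in Ler 2 of 115 where 24.2% were.

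In air, een-1 and ein6-1 een-1 had the most called loci of the Ler-background mutants. In een-1 12 of 115 were called (26% of all genes), 4 higher (19.3% of all genes) and 8 lower (6.75%). The higher loci include ATCG00840 and ATCG01300, a pair equal in 28 of 28 libraries, so the same values were counted at each. ATCG00660 (ribosomal protein L20) had 0.733% and 0.306% against 1.40% and 1.13% in Ler (-0.998 ± 0.300, limma adjusted p = 0.0234). ATCG01230 had 0.632% and 1.06% against 1.76% and 3.49% (-1.33 ± 0.39, limma adjusted p = 0.0220), and the second Ler value is the one in which ATCG00905 was at 0. The libraries of the 2 genotypes did not overlap at these loci.

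Of the 4 mitochondrial loci called in een-1, ATMG00510 had 2.96% and 1.85% against 4.82% and 3.23% in Ler (-0.66 ± 0.22, limma adjusted p = 0.0397), without overlap. ATMG00670, named here although it lay below 2 TPM, was at 0.95 and 1.28 TPM against 0.85 and 0.64 TPM (1.37 ± 0.35 on the scaled values, limma adjusted p = 0.0109). The others have a chromosome 2 copy. ATMG01190, encoding ATP synthase subunit 1, had 5.36% and 2.26% against 7.08% and 5.06% in Ler (-0.71 ± 0.25, limma adjusted p = 0.0484), with overlap between the genotypes. In TPM it was at 6.53 and 1.40 against 24.2 and 17.3, and its copy AT2G07698 was at 4.91 and 4.13 against 11.3 and 12.3. ATMG00210 was called higher, being listed at 0 in both Ler libraries, where its copy was at 9.26 and 11.1 TPM. The count of called loci fell to 3 without the first Ler air library, 4 without the second and 5 without the second een-1 air library.

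In ein6-1 een-1 15 loci were called (40% of all genes), 6 higher (27.4% of all genes) and 9 lower (12.6%). The higher loci include the pair ATCG00870 and ATCG01270, equal in 17 of 17 libraries with a value. ATCG00660 was again lower, at 0.385% and 0.597% (-1.11 ± 0.30, limma adjusted p = 0.00839), a comparison with the same Ler libraries. ATCG00580 had 1.051% and 1.075% against 2.07% and 3.20% (-1.21 ± 0.45, limma adjusted p = 0.0419), and ATCG00540 had 0.737% and 0.981% against 1.94% and 1.95% (-1.09 ± 0.23, limma adjusted p = 0.00163). With the dominant loci kept in the total, ATCG00540 differed by 0.03, in the opposite direction and far from the threshold.

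Of the mitochondrial loci, ATMG00980 (ribosomal protein S12/S23 family) had 13.3% and 15.8% in ein6-1 een-1 against 19.8% and 22.1% in Ler (-0.52 ± 0.20, limma adjusted p = 0.0442). ATMG01010, described as a conserved protein of unknown function, was at 0 and 0.68 TPM against 7.68 and 8.56 TPM, with its copy AT2G07674 at 0.65 and 1.92 against 2.16 and 2.74 TPM. ATMG00090 was higher, at 8.30% and 6.00% against 3.85% and 4.10% (0.76 ± 0.18, limma adjusted p = 0.00395), as was ATMG00080, at 10.2% and 10.8% against 6.67% and 6.74% (0.61 ± 0.18, limma adjusted p = 0.0160). The count of called loci was 5 without the first Ler air library, 8 without the second and 7 without the first ein6-1 een-1 air library.

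LHCB2.1, which encodes a light-harvesting chlorophyll-binding protein and marks greening, was at 0.53 and 0.57 TPM in ein6-1 een-1 air and at 22.5 and 17.3 TPM in ein2-45 air, against 2.86 and 3.48 TPM in Ler, 8.93 and 9.02 TPM in ein6-1 and 4.21 and 4.75 TPM in een-1. The part of this in the plastid calls was not tested.

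The other Ler-background mutants had fewer calls. In ein6-1 1 locus was called (6.8% of all genes). This was ATCG01090, at 0.769% and 0.429% against 0.0728% and 0.145% in Ler (1.15 ± 0.33, limma adjusted p = 0.0482). The Ler values are the ones below 1 TPM given above. The call was lost without any 1 of the 4 libraries compared. In ein2-45 2 were called (22.7% of all genes). ATCG01230 had 0.602% and 0.838% (-1.53 ± 0.39, limma adjusted p = 0.01008), against the same Ler values as above. ATMG00270 was listed at 0 in both Ler libraries and was at 5.83 and 1.83 TPM in ein2-45. The ein2-45 count was 0 without its first air library, 4 without its second and 1 without the second Ler air library.

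In the Col-0 background arp5-1 had the lowest plastid total. It was 0.0141% and 0.00461% against 0.0196% and 0.0568% in Col-0, a mean 4.08-fold lower, without overlap. The mitochondrial total, 0.00979% and 0.00303%, overlapped that of Col-0, 0.00433% and 0.0110%. The ratio of plastid to mitochondrial signal was 1.44 and 1.52 in arp5-1, 4.54 and 5.16 in Col-0, 4.22 and 4.94 in een-2 and 5.08 and 6.23 in ino80-8. On TPM as deposited 35 of 69 plastid loci were called lower and 0 higher in arp5-1 (50.4% of all genes called, 27.9% lower), with 2 of 28 mitochondrial loci lower and 1 higher.

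Markers of greening differed in this comparison too. LHCB1.1, which encodes another light-harvesting protein, was at 1.5 and 2.25 TPM in arp5-1 against 51.0 and 70.3 TPM in Col-0, with 8.58 and 15.1 TPM in een-2 and 14.7 and 35.5 TPM in ino80-8. LHCB2.1 was at 5.50 and 5.92 TPM in arp5-1 against 131 and 207 TPM in Col-0. The dominant loci ATCG00970, ATCG01160 and ATMG01380 had values only in arp5-1. The part of either in the difference was not tested.

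Within the plastid total, shares differed in arp5-1 as well. In all, 26 of 97 organelle loci were called (50.9% of all genes), 12 higher (23.9% of all genes) and 14 lower (27%). The higher loci include the pair ATCG00905 and ATCG01230, which had the same values in this comparison. ATCG00790 had 7.43% and 8.95% against 3.72% and 2.21% in Col-0 (1.39 ± 0.22, limma adjusted p = 0.000591), and ATCG00020 had 10.2% and 5.97% against 1.72% and 4.38% (1.38 ± 0.48, limma adjusted p = 0.0356). Both were higher only as shares: on TPM as deposited the differences were -0.49 and -0.51, and with the dominant loci kept in the total -1.59 and -1.58. ATCG00660 (ribosomal protein L20) had 0.896% and 1.66% against 0.417% and 0.131% (1.42 ± 0.35, limma adjusted p = 0.00794), and -0.53 with the dominant loci kept in the total. This locus lay below 2 TPM throughout the comparison. In TPM it was at 1.20 and 0.74 in arp5-1 against 0.81 and 0.72 in Col-0, so the difference lay mostly in the plastid total. ATCG00070 was listed at 0 in both arp5-1 libraries and at 3.21 and 11.3 TPM in Col-0. ATCG01090 was likewise listed at 0 in both arp5-1 libraries, against 0.47 and 3.72 TPM.

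Among the mitochondrial loci of arp5-1, ATMG00980 had 25.01% and 20.6% against 14.6% and 17.1% in Col-0 (0.54 ± 0.20, limma adjusted p = 0.0425), turning to -0.43 with the dominant loci kept in the total. ATMG01010 was listed at 0 in both Col-0 libraries and was at 2.6 and 0.53 TPM in arp5-1. ATMG00990 was called lower, at 0 in both arp5-1 libraries against 3.17 and 9.76 TPM, while its copy AT2G07751 was at 3.55 and 1.95 TPM in arp5-1 and at 0 in both Col-0 libraries. The count of called organelle loci was 16 without the second Col-0 library and 17 without the second arp5-1 library.

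**Figure D5:**
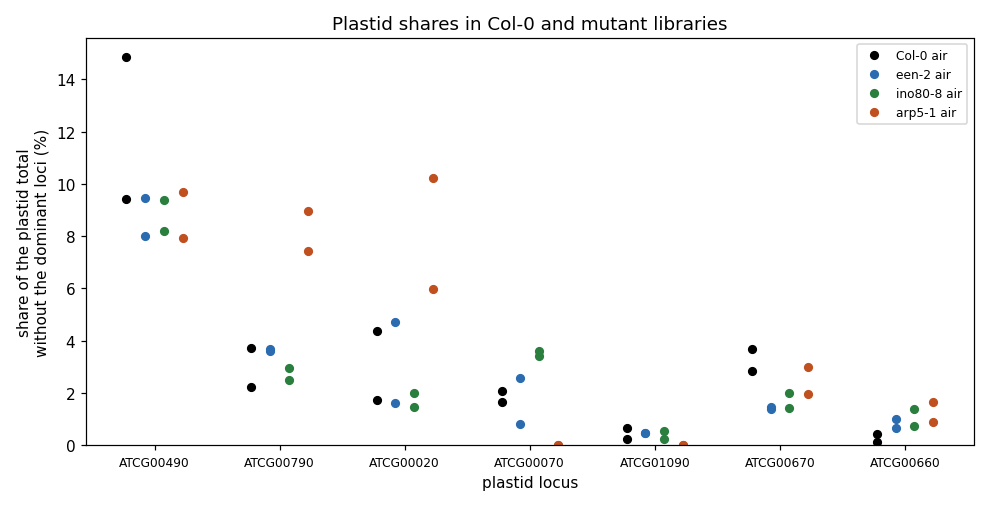
Share of the plastid total without the dominant loci (percent) for 7 plastid loci, 2 points for each group of the second table. ATCG00790 (7.43% and 8.95%) and ATCG00020 (10.2% and 5.97%) are highest in arp5-1, ATCG00070 and ATCG01090 are at 0 there, and ATCG00670 is lower in een-2 (1.47% and 1.39%) than in Col-0 (3.68% and 2.83%).

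een-2 and ino80-8 had fewer calls. In een-2 5 of 97 loci were called (10.5% of all genes). ATCG00670, the ClpP protease subunit, had 1.47% and 1.39% against 3.68% and 2.83% in Col-0 (-1.02 ± 0.23, limma adjusted p = 0.0256). It had 1.43% and 1.99% in ino80-8 (-0.82 ± 0.23, limma adjusted p = 0.0990) and 1.98% and 3.00% in arp5-1 (-0.37 ± 0.23, limma adjusted p = 0.209). ATCG00040 was higher in een-2, at 2.13% and 2.56% against 1.13% and 0.871% (1.01 ± 0.22, limma adjusted p = 0.0219), and ATCG00650 was at 4.41 and 4.56 TPM against 1.04 and 0 TPM. ATMG01370 and ATMG00990 were listed at 0 in both een-2 libraries, where the copy of ATMG00990 was at 11.4 and 9.30 TPM. The een-2 count was 0 without its second library and 3 without any 1 other library of the table. In ino80-8 limma called 0 loci (3.1% of all genes), with 16 loci at an unadjusted p under 0.05 (16.5%, against 17.8% of all genes).

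Nuclear genes that serve organelle gene expression were looked at beside these loci. The list of 27 held phage-type RNA polymerases, sigma factors, proteins associated with the plastid-encoded polymerase and organelle ribonucleases, and all 27 were tested. In Ler 14 rose with ET and 0 fell, where 15.3% of all genes were called higher, with a median of 0.57 against 0.14 over all genes. FSD3, an iron superoxide dismutase of the plastid transcription complex, averaged 51.8 TPM in ET against 24.6 TPM in air (0.91 ± 0.19, limma adjusted p = 0.00292). RPOTP, a plastid phage-type RNA polymerase gene, averaged 6.40 against 2.90 TPM (0.84 ± 0.27, limma adjusted p = 0.0346). In the 4 mutants limma called 0 of the 27 with ET. Of all genes, 14.9% were called in ein6-1, 13.9% in een-1, 0.69% in ein6-1 een-1 and 0% in ein2-45. The list medians were -0.04, 0.51, 0.18 and 0.03 in that order, against -0.0016, 0.05, -0.0069 and -0.0006 over all genes. At an unadjusted p under 0.05 there were 0 in ein6-1 (and 0 called, 1 at an unadjusted p under 0.05, without the second ein6-1 ET library), 15 in een-1, 2 in ein6-1 een-1 and 1 in ein2-45. With all libraries kept, 28.02%, 27.55%, 7.96% and 2.81% of all genes had such a p in the same order of mutants. For the difference in response from Ler limma also called 0 of the 27. At an unadjusted p under 0.05 there were 10, 0, 2 and 7 of the 27 in that order. Of all genes, 10.9%, 6.86%, 24.5% and 24.7% stood there.

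In een-1 against Ler in air 18 of the 27 were higher (19.3% of all genes) and 0 lower, with a median of 0.89 against 0.17 over all genes. FLN2, a fructokinase-like protein of the plastid transcription complex, averaged 17.7 against 6.30 TPM (1.20 ± 0.19, limma adjusted p = 0.000813), and PNP, a plastid polynucleotide phosphorylase gene, averaged 20.8 against 7.32 TPM. In ein6-1 een-1 8 of the 27 were higher, a share near the 27.4% of all genes called higher there, and SIG2, a sigma factor gene, was lower (-0.65 ± 0.19, limma adjusted p = 0.0139). In ein2-45 11 were higher (15% of all genes), SIG1 to SIG4 and SIG6 among them. In ein6-1 limma called 0 (6.8% of all genes), with 7 at an unadjusted p under 0.05, where 21.1% of all genes stood.

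In arp5-1 10 of the 27 were higher and 6 lower, where 23.9% of all genes were called higher and 27% lower. The median was 0.39 against -0.04 over all genes. TRXZ, a thioredoxin of the plastid transcription complex, averaged 45.1 against 10.5 TPM in Col-0 (2.01 ± 0.32, limma adjusted p = 0.000616), and FLN1, another fructokinase-like protein of it, averaged 24.9 against 6.37 TPM (1.83 ± 0.30, limma adjusted p = 0.000788). The 6 lower genes were SIG1 to SIG5 and RNE, an organelle ribonuclease gene, such as SIG1 at 9.22 against 26.4 TPM (-1.38 ± 0.25, limma adjusted p = 0.00144). In een-2 FSD2, TRXZ and FLN1 were higher (5.92% of all genes) and 0 lower, and in ino80-8 SIG2 and RNJ were lower (1.45% of all genes) and 0 higher.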

How the data were processed

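RNA-seq libraries of 14 groups with 2 replicates each, called biological by the study, were used. The authors aligned single reads to TAIR10 with STAR 2.6.0c and deposited TPM per gene from RSEM; the read depth of a library is unknown from these values, so no counting interval is given. Of the TPM columns, 4 were not tied to a sample of the series and were not used. The columns left out of the second table were recorded as repeats of Ler and een-1.

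Members had 1 TPM or more in at least 2 libraries of a table. The members and gene lists were chosen with earlier results of these data known. Dominant loci (mean of 100 TPM or more) were separated after their values were seen, in place of a planned rule on rRNA and tRNA that needed an annotation not used here. TPM of each compartment were scaled to a common total without dominant loci, and log2(value + 1) was fitted with limma 3.58.1 in R 4.3.3, all groups of a table in 1 fit, without a replicate block, over genes with 1 TPM in at least 2 libraries. Calls had a Benjamini-Hochberg adjusted p below 0.05 over all genes. The procedure was run on simulated data in which only nuclear genes of higher level were changed. Its recovery of organelle or low loci was thus not tested. Totals were compared by exact permutation within genotypes. Nuclear rRNA was taken as 5 loci.

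Loci are named by mean level (8 per organelle), by the largest changes among called loci whose libraries do not overlap and that reach 2 TPM, and by complex where described; of loci without a description at most 2 in each direction are named per comparison. Calls outside this rule are named where a comparison had few. Alternatives were TPM as deposited, other compartment factors and totals, summed plastid pairs, and chromosome 2 copies scaled with the mitochondrial loci. Others were pseudocounts of 0.1 and 5, other minimums, fits of the compared groups only, a replicate block and each library left out. The nuclear list without the second ein6-1 ET library was counted after seeing the data.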

Additional observations from a re-analysis of the deposited data

Results flagged for a closer look

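The ET response differed from that of Ler, by the interaction term of limma, at 5 loci. For ATCG00660 (ribosomal protein L20) in ein6-1 een-1 the difference was 1.46 on the log2 scale, with a share lower in ET in Ler and higher in ET in the mutant. It turned to -0.68 with the dominant loci kept in the total, and 15 of 32 alternatives lost the call with the same direction. For ATCG01090 in ein6-1 een-1 the difference was -1.78. For ATCG00780 in ein2-45 it was 1.64, with a share lower in ET in Ler and higher in ET in the mutant. The dominant loci ATCG00960 and ATCG01170, whose values were equal, gave 11.64 each in ein6-1 een-1. Both were listed at 0 in all Ler and in the ein6-1 een-1 air libraries and at 2042 and 2226 TPM in ein6-1 een-1 ET, so the fitted value depends on the pseudocount and is no fold change. With 2 libraries a group no test for a library that stands apart was made.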

How the results depend on the processing

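The samples share only a replicate number. Correlations between the deviations of same-numbered libraries were taken over all genes and over the organelle loci. Over all genes they ran from -0.26 to 0.27 in the 45 pairs of groups of the first table, 8 of them over 0.1. Over the organelle loci they ran from -0.76 to 0.50 there, with 14 over 0.1. The medians were 0.04 and -0.03. In the 6 pairs of the second they ran from -0.04 to 0.15 over all genes and from -0.42 to 0.26 over organelle loci. In each case 1 was over 0.1. With the replicate block the count of called loci became 0 in ein6-1 and 3 in ino80-8 and no other count moved by over 1.5 times. On TPM as deposited it was 2 for ET in een-1 (7.35% of all genes), 0 in ein6-1 (4.19%) and 45 in een-1 (23.7%). It was 2 in een-2 (9.67%) and 4 in ino80-8 (2.98%) on that scale. With median of ratios factors it was 4 for ET in Ler, 2 for ET in een-1, 0 in ein6-1 and 3 in een-2. With the dominant loci kept in the totals it was 1 for ET in ein6-1, 0 in ein6-1, 2 in een-1, 1 in ein2-45, 1 for the difference in response, 4 in ino80-8 and 55 in arp5-1. With the plastid pairs added together it was 1 for ET in ein6-1. With the chromosome 2 copies scaled together with the mitochondrial loci, but not added to them, it was 2 for ET in een-1. A pseudocount of 0.1 gave 1 for ET in ein6-1, and of 5 gave 0 in ein6-1 and 3 in een-2. No minimum gave 1 for ET in ein6-1, 5 for the difference in response and 2 in een-2. A minimum of 5 TPM gave 1 for ET in ein6-1, 0 in ein6-1, 1 in ein2-45, 3 in een-2 and 16 in arp5-1. Fits of the compared groups only gave 8, 4 and 2 for ET in Ler, ein6-1 and ein6-1 een-1, 2 in ein6-1, 32 in ein6-1 een-1, 10 in ein2-45, 10 for the difference in response, 3 in een-2 and 1 in ino80-8. In 2 settings chosen after seeing the data, leaving out the 3 libraries with over 20000 TPM in dominant plastid loci gave 1 and 0 for ET in Ler and ein6-1, 0 in ein6-1, 5 in een-1, 7 in ein6-1 een-1 and 1 for the difference in response, and leaving out both arp5-1 libraries gave 3 in een-2 and 1 in ino80-8. Under the other settings, and with single libraries left out, the share of all genes called was not set beside the count. Such counts thus do not tell a change of the organelle loci from a change over all genes. The cause of these changes was not tested.

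Leaving out each library in turn, the count ran from 0 to 5 for ET in Ler, 0 to 4 in ein6-1, 0 to 7 in een-1, 0 to 1 in ein6-1 een-1 and 0 to 0 in ein2-45. In air it ran from 0 to 1 in ein6-1, 3 to 12 in een-1, 5 to 19 in ein6-1 een-1 and 0 to 4 in ein2-45, from 0 to 6 for the difference in response, and from 0 to 3 in een-2, 0 to 2 in ino80-8 and 16 to 26 in arp5-1. The plastid ET difference ran from -0.17 to 0.12 and the mitochondrial one from -0.34 to -0.04. The plastid difference turned to 0.28 (exact permutation p = 0.610) with dominant loci kept and to 0.00117 in percent (exact permutation p = 0.870). It also turned without the second Ler ET (0.12), first ein6-1 air (0.07), first ein6-1 ET (0.04), first een-1 air (0.05), first een-1 ET (0.06), second ein6-1 een-1 ET (0.06), second ein2-45 air (0.00987) or first ein2-45 ET library (0.08).

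With the dominant loci kept in the totals, directions turned in ein6-1 een-1 for ATCG00540 (0.0336), ATCG00350 (0.54), ATCG00500 (0.22) and ATCG00490 (0.89), and its ET response difference for ATCG00660 became -0.68. In arp5-1 they turned for ATCG00020 (-1.58), ATCG01230 and ATCG00905 (-1.435 each), ATCG00780 (-1.35), ATCG00660 (-0.53), ATCG00790 (-1.59), ATCG00180 (-1.33), ATCG00170 (-0.69), ATMG00980 (-0.43) and ATMG00080 (-0.0913). On TPM as deposited they turned in arp5-1 for ATCG00020 (-0.51), ATCG01230 and ATCG00905 (-0.64 each), ATCG00780 (-0.46), ATCG00790 (-0.49), ATCG00180 (-0.55) and ATCG00170 (-0.21). TPM give no depth, so low loci cannot be given a counting error.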
